A study of Mus musculus with 6 samples.

Results

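The miR-221 and miR-222 cluster consists of a pair of neighbouring hairpins on the X chromosome that give 4 mature products, mmu-miR-221-3p, mmu-miR-221-5p, mmu-miR-222-3p and mmu-miR-222-5p. The members were chosen by these exact names, and all 4 were found among the 1915 mouse miRNAs listed in the count data. Small RNA-seq was performed on whole brain of wild-type C57BL/6 mice at E15.5 (embryonic age in days), and the 6 libraries were split evenly between females and males. Sex was assigned from the presence of testicular cords, and all libraries shared strain, genotype, tissue and age, with no treatment. Each library was made from RNA pooled from 2 to 3 individuals, so the spread between libraries is a spread between pools, and a p-value measures only that spread.

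A microRNA (miRNA) hairpin is transcribed from the genome and cut into a short duplex, of which one strand, or arm, is usually loaded into the silencing complex while its partner is degraded. The loaded strand finds messenger RNAs through its seed, bases 2 to 8, and lowers their stability and translation. miR-221 and miR-222 are transcribed together and are best known for repressing Cdkn1b, the cell cycle inhibitor p27, and Kit, a receptor tyrosine kinase. They have been studied mostly in vascular cells, blood cell precursors and tumours, glioma among them, and less in the embryonic brain.

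The mature sequences show why the 3p arms are treated as one family. The sequences come from RefSeq (GRCm38.p6 table), with the seed in capitals, and the listing held 3 of the 4 members.
mmu-miR-221-3p: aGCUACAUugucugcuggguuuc
mmu-miR-222-3p: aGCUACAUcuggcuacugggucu
mmu-miR-221-5p: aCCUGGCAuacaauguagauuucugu
The 3p arms were both 23 bases long and shared their first 8 bases, the whole seed included. Over their full length they were identical at 11 of 23 positions, so reads of one could be assigned apart from reads of the other. The 5p arm of miR-221 carried a different seed. One other listed miRNA, mmu-miR-1928, had the 3p seed, and it had 0 reads in all 6 libraries.

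The hairpins are shown with the mature products of that listing in capitals, since the arms compared here come from opposite sides of each stem.
Mir221: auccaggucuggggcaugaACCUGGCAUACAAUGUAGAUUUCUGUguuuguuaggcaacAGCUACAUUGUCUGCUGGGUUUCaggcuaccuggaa
Mir222: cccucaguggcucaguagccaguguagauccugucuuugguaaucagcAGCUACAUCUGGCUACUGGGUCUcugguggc
In the mm9 build, the one named for the deposited counts, Mir221 lay on the minus strand at chrX:18723420-18723514 and Mir222 at chrX:18724019-18724097. The hairpins did not overlap, with Mir222 upstream in the direction of transcription. No other gene of the GENCODE vM1 annotation overlapped either hairpin, so both were intergenic. The nearest annotated gene was the lincRNA Gm14636, 10010 bases away. The 3p products lay at chrX:18723433-18723455 for miR-221 and chrX:18724027-18724049 for miR-222, and the 5p product of miR-221 at chrX:18723470-18723495.

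The DNA complement of the shared 3p seed, ATGTAGC, was searched on the sense strand in the longest annotated 3′ UTR of each gene. It was found in 1629 of 19915 genes, or 8.18%. Windows around the matches in Cdkn1b, in Kit and in Ddit4, an mTORC1 inhibitor also known as a target, are shown with the match in capitals.
Cdkn1b: tctaaaagcattggATGTAGCattg
Kit, first match: atgatgggagatatATGTAGCaaga
Kit, second match: ttgtaaatattgaaATGTAGCaata
Ddit4: ctggctggatgtgtATGTAGCatgt
The Cdkn1b match lay at bases 2357 to 2363 of a 3′ UTR of 3439 bases. The Kit matches lay at bases 447 to 453 and 1978 to 1984 of 2177, and the Ddit4 match at bases 286 to 292 of 861. All 4 matches were followed by an A. A match shows that these letters are present, and binding was not measured in these libraries.

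Library totals ranged from 14802675 to 59362011 reads assigned to miRNAs, and levels are given as counts per 1000000 reads of the library total (CPM). The library labelled female replicate 2 was the deepest and stood apart. Only 660 miRNAs had a read in it, compared with 790 to 915 in the others, and 73 of the 645 miRNAs with a read in all 5 other libraries had 0 reads there. mmu-miR-222-5p was among them, so the comparisons and correlations of that arm are given with and without this library. Counting intervals for single libraries are exact 95% binomial intervals. They cover counting error only, because amplified reads without molecular identifiers are not independent molecules.

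mmu-miR-221-3p was the most abundant member, with 434.8, 307.9 and 354.1 CPM in female replicates 1 to 3 and 571.2, 517.0 and 494.6 CPM in male replicates 1 to 3. Every male library was above every female library. The mean was 366 ± 64.2 CPM in females and 528 ± 39.4 CPM in males (SD, n = 3 per sex). It ranked between 131 and 154 among all miRNAs in each library, so it was expressed in the embryonic brain at a moderate level.

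mmu-miR-222-3p, with the same seed, was measured at 206.5, 189.6 and 206.0 CPM in the female libraries and at 246.6, 277.7 and 255.8 CPM in the male libraries. Here too the sexes did not overlap. Means were 201 ± 9.63 CPM and 260.0 ± 16.0 CPM (SD, n = 3 per sex), and its rank lay between 167 and 196. Its coefficient of variation over the 6 libraries was 15.0%, compared with 22.5% for mmu-miR-221-3p.

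The 5p arms were low. mmu-miR-221-5p had 8.98, 10.4 and 13.6 CPM in females and 12.2, 9.18 and 6.64 CPM in males, from 133 to 615 reads per library. Female and male values were interleaved, with means of 11.0 ± 2.37 and 9.32 ± 2.76 CPM (SD, n = 3 per sex). The counting interval of the lowest library, male replicate 3, was 5.65 to 7.77 CPM and that of the highest, female replicate 3, was 12.4 to 14.9 CPM.

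mmu-miR-222-5p was the least abundant member, at 2.97, 0 and 3.18 CPM in females and 1.87, 1.87 and 3.26 CPM in males. These values rest on 44, 0 and 114 reads in the female libraries and 35, 82 and 77 in the male libraries. Apart from the 0, the female values lay within the male range, with 2 of 3 male libraries below both. The 0 in female replicate 2 came from 59362011 reads, which by counting error alone would allow a level of up to 0.0505 CPM (3 counts). Loss of this kind was not particular to mmu-miR-222-5p. Of 71 miRNAs whose mean in the other 5 libraries lay between 1.87 and 3.26 CPM, 32 (45.1%) had 0 reads in female replicate 2. The same share for each other library was between 4.84% and 14.7%.

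**Figure D1:**
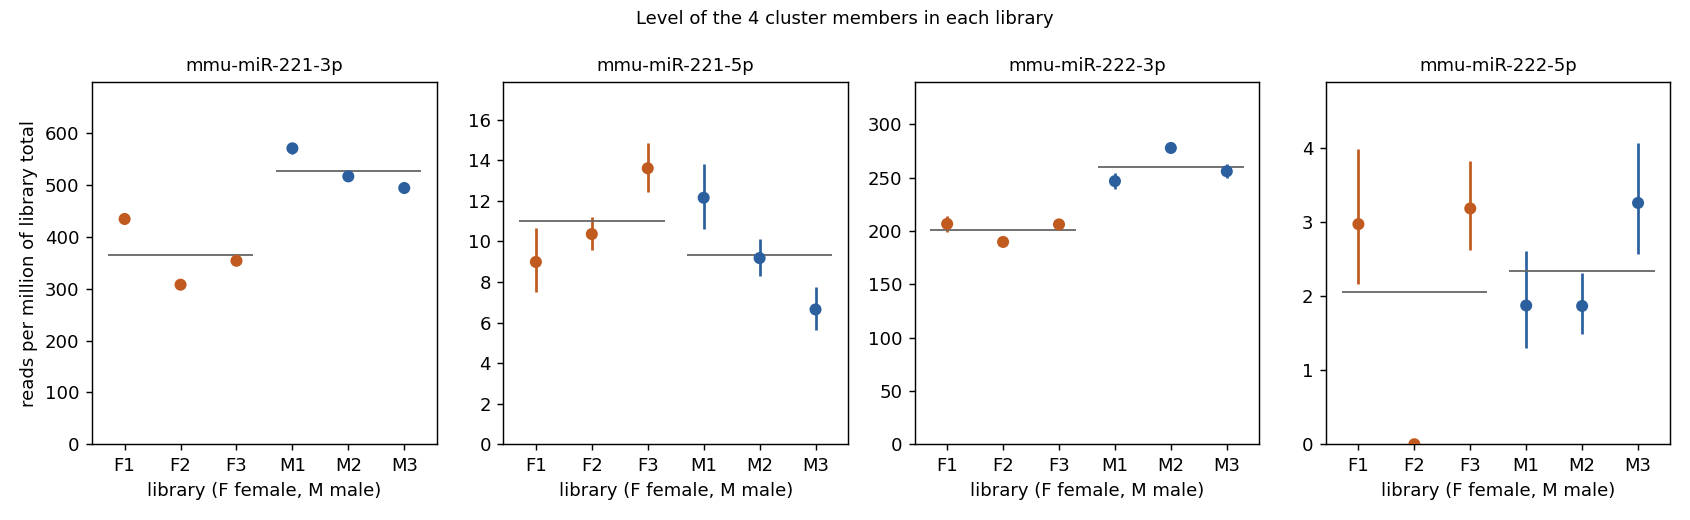
Level of each cluster member (CPM, linear axes starting at 0) in the 3 female libraries F1 to F3 (orange) and the 3 male libraries M1 to M3 (blue). Points are libraries, vertical lines exact 95% counting intervals (shorter than the point where not visible) and grey lines sex means. Both 3p arms are higher in all 3 male libraries, the 5p arms overlap between the sexes, and mmu-miR-222-5p is at 0 in F2.

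By mean level the order was mmu-miR-221-3p, mmu-miR-222-3p, mmu-miR-221-5p and mmu-miR-222-5p, at 447, 230.4, 10.2 and 2.19 CPM, and this order was the same in each of the 6 libraries. No neighbours in that order overlapped across libraries. A mature miRNA is covered by a single read, so these levels need no scaling by length. Capture during library preparation differs between sequences, however, and a ratio of reads is not a ratio of molecules.

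Summed over the 4 members, the cluster reached 653, 508 and 577 CPM in females and 832, 806 and 760.3 CPM in males, again without overlap. The 3p arms made up 97.1% to 98.7% of this sum, and mmu-miR-221-3p alone made up 60.6% to 68.7%. With 3 libraries against 3, the two-sided exact permutation test cannot go below p = 0.1. The sum, mmu-miR-221-3p and mmu-miR-222-3p each reached that limit (p = 0.1, exact permutation; 0.233 after Benjamini-Hochberg adjustment over 7 tests).

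Sex differences were then tested across all miRNAs by the quasi-likelihood method of edgeR. p-values were adjusted (Benjamini-Hochberg) for the 1120 miRNAs that had at least 10 reads in total. All 4 members passed that filter, and none was called at an adjusted p under 0.05. The background is 95 miRNAs called, or 8.48%, of which 36 (3.21% of those tested) were higher in males. At an unadjusted p under 0.05 there were 206 miRNAs. DESeq2 without a correction for unwanted variation called 129 miRNAs and also none of the members.

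mmu-miR-221-3p had a log2 fold change of male over female of 0.41 (SE 0.19, 95% interval 0.01 to 0.81). Its unadjusted p was 0.0460 and its adjusted p was 0.256 in the edgeR fit across all miRNAs. After adding 1 factor of unwanted variation (RUVr), a fold change of 0.42 in DESeq2 had an adjusted p of 0.0339, whereas with 2 factors it was 0.0966 and with 1 factor in edgeR 0.126. The call for mmu-miR-221-3p therefore depended on the tool and on the number of factors. The direction was higher in males under all 16 alternatives, but these reuse the same 6 libraries. With every male library above every female library, leaving out a library could hardly reverse it, so the constant direction adds no evidence. The paper itself used DESeq2 with RUVr, without stating the number of factors. It counts miR-221-3p among its sex-biased miRNAs (DESeq2 adjusted p under 0.05) and describes it as higher in males. It pairs miR-221-3p with its target Ddit4, also higher in males, and proposes that the miRNA could even out the protein between the sexes.

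mmu-miR-222-3p had a log2 fold change of 0.25 (SE 0.20, 95% interval -0.17 to 0.68, edgeR adjusted p 0.491). For the minor arms the intervals were wide. mmu-miR-221-5p had a log2 fold change of -0.38 (SE 0.61, 95% interval -1.63 to 0.87, edgeR adjusted p 0.803). mmu-miR-222-5p had one of 0.12 (SE 1.69, 95% interval -3.36 to 3.60, edgeR adjusted p 0.984), and without female replicate 2 it was -0.47 (SE 1.10). These data do not resolve a difference of mmu-miR-222-5p in either direction.

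The absence of overlap in both 3p arms was read against the other miRNAs. On CPM of the library total, 172 of the 1120 miRNAs (15.4%) had all 3 male libraries above all 3 female libraries. Among the 553 miRNAs averaging 100 reads or more, a level both 3p arms exceed, the share was 139 (25.1%). After trimmed mean (TMM) scaling this held for 134 miRNAs (12.0%), mmu-miR-221-3p and mmu-miR-222-3p among them, and for 102 (18.4%) of the 553. On the TMM scale mmu-miR-221-3p had 431, 349 and 360.8 CPM in females and 499, 536 and 478 CPM in males, and mmu-miR-222-3p had 205, 215 and 209.9 CPM in females and 215.4, 288 and 247 CPM in males. The gap for mmu-miR-222-3p narrowed on this scale to that between 215 CPM in female replicate 2 and 215.4 CPM in male replicate 1.

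**Figure D2:**
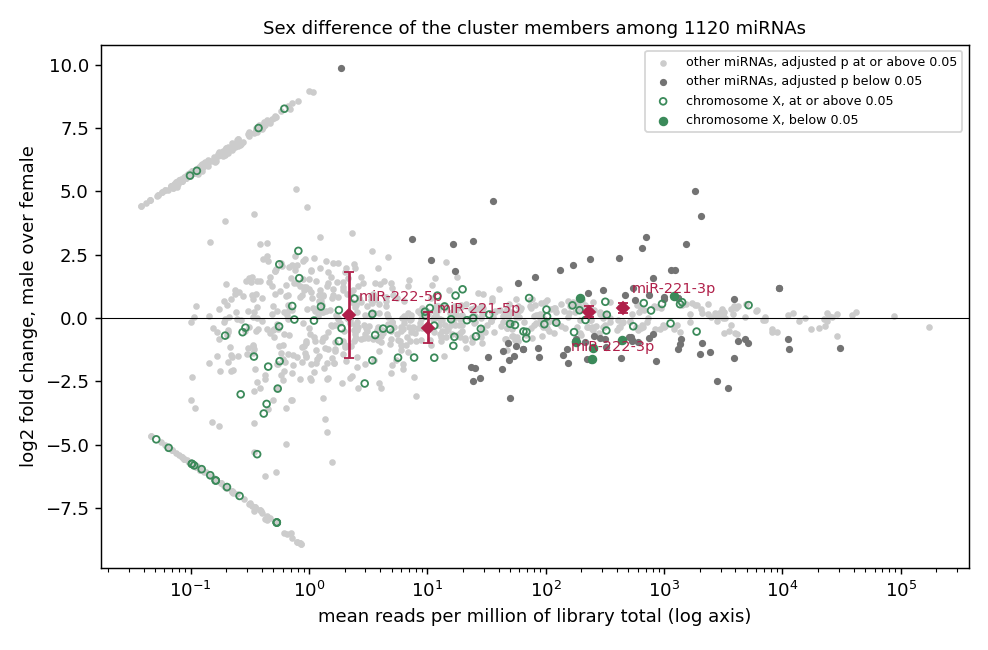
Log2 fold change of male over female (vertical axis, edgeR) against mean CPM (horizontal axis, log scale) for the 1120 miRNAs tested. Diamonds with bars (standard error) are the 4 cluster members, green points are miRNAs encoded only on chromosome X, grey points are all others, and filled green and dark grey points are called at an adjusted p under 0.05. The diagonal rays at low levels are miRNAs with reads in libraries of one sex alone. The members lie between -0.38 and 0.41, and none is called.

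The X chromosome was considered because both hairpins lie on it. A chromosome was known for 1085 of the 1120 miRNAs (96.9%, RefSeq listing), and 102 were encoded only on X. Their median log2 fold change was -0.33, against 0.02 for the 980 encoded only on autosomes. Among the 59 X-linked miRNAs averaging 100 reads or more per library it was -0.09, against -0.08 for all 553 miRNAs at that level. Of the 102, 2 were called higher in males and 4 higher in females (5.88%, compared with 8.37% on autosomes); at 100 reads or more the share was 10.2%, compared with 17.0% for all miRNAs. The 2 were mmu-miR-351-5p (log2 fold change 0.88, SE 0.23, adjusted p 0.0122) and mmu-miR-450b-3p (0.80, SE 0.22, adjusted p 0.0172), and the largest female changes were mmu-miR-384-3p (-1.61), mmu-miR-374b-5p (-1.17) and mmu-miR-448-3p (-0.96). Of the 59 X-linked miRNAs at 100 reads or more, 26 had a positive fold change, mmu-miR-221-3p and mmu-miR-222-3p among them. In 16 of the 59 all male libraries were above all female libraries, beside 139 of the 553 (25.1%). The fold changes of both 3p arms were smaller in size than those of the X-linked miRNAs that were called, and calling itself favours large changes.

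Use of the 2 arms of each hairpin was compared within libraries, which needs no scaling between libraries. For miR-221, the 5p arm made up 2.02%, 3.26% and 3.70% of the reads of both arms in females and 2.08%, 1.74% and 1.33% in males. Female replicate 1 lay inside the male range, so the sexes overlapped. The corresponding ratio of 3p to 5p reads was 48.4, 29.7 and 26.0 in females and 47.0, 56.3 and 74.4 in males (mean 34.7 ± 12.0 and 59.3 ± 13.9, SD, n = 3 per sex; exact permutation p = 0.2, adjusted 0.35).

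For miR-222, the 5p arm made up 1.42%, 0% and 1.52% in females and 0.754%, 0.668% and 1.26% in males. The counting intervals of the highest library, female replicate 3 (1.26% to 1.83%), and male replicate 2 (0.532% to 0.828%) did not touch. That of male replicate 3 (0.994% to 1.57%) overlapped that of female replicate 3. The 0 in female replicate 2, out of 11255 reads of both arms, would by counting error alone allow a share of up to 0.0267% (3 counts). On the same basis its 3p to 5p ratio would be at least 3752, whereas in the other 5 libraries the ratio lay between 64.7 and 149. Since many miRNAs of this level had 0 reads in female replicate 2, these limits do not bound its arm use. Outside female replicate 2, both female shares were above all 3 male shares.

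The difference in log2 arm ratio, male minus female, was fitted with limma over the 254 hairpin names that had both arms at a mean of at least 10 reads. For miR-221 it was 0.80 (SE 0.52, 95% interval -0.34 to 1.94, limma adjusted p 0.519), from a female mean of 5.06 and a male mean of 5.86 on the log2 scale. For miR-222 it was -2.02 (SE 2.35, 95% interval -7.20 to 3.16, limma adjusted p 0.727), and it turned to 0.78 (SE 0.92, limma adjusted p 0.622) without female replicate 2. Of the 254 arm ratios 0 (0%) were called by limma, and 38 had an unadjusted p under 0.05.

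The dominance of the 3p arm in both hairpins was not a general property of the hairpins measured, of which 122 of 254 (48.0%) had more 3p than 5p reads. In size, the arm bias of miR-221 stood at percentile 60.6 of the 254. That of miR-222 stood at percentile 78.7, from a mean log2 ratio of 7.85 in which female replicate 2 is set by the 0.5 reads added, and at percentile 71.3, from a mean of 6.53, without that library. The residual SD of the log2 arm ratio within sexes was 0.41 for miR-221, below the median of 0.86 over all hairpins. For miR-222 it was 3.45, and 0.40 without female replicate 2, where the median over all hairpins was 0.57. In female replicate 2, 74 hairpins had an arm with 0 reads, and in no other library did more than 44.

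**Figure D3:**
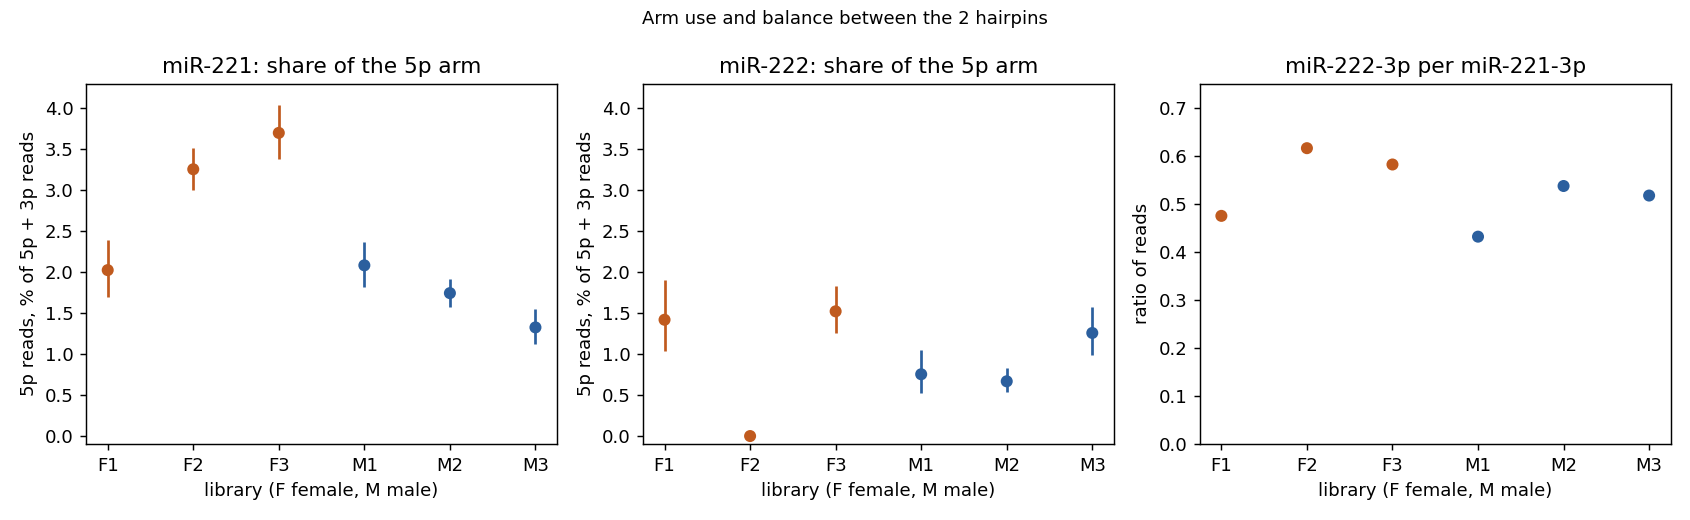
Share of the 5p arm among reads of both arms of miR-221 (left) and miR-222 (middle), in percent with exact 95% counting intervals, and the ratio of mmu-miR-222-3p to mmu-miR-221-3p reads (right), for female (F1 to F3, orange) and male (M1 to M3, blue) libraries. The 5p share is under 4% everywhere, it is 0 for miR-222 in F2, and in all 3 plots at least 1 female library lies within or below the male values.

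The balance between the hairpins was then compared through their 3p arms. The ratio of mmu-miR-222-3p to mmu-miR-221-3p reads was 0.475, 0.616 and 0.582 in females and 0.432, 0.537 and 0.517 in males. The values overlapped, with means of 0.558 ± 0.0735 and 0.495 ± 0.0560 (SD, n = 3 per sex; two-sided exact permutation p = 0.4, adjusted 0.56). Between the minor arms, the ratio of mmu-miR-222-5p to mmu-miR-221-5p reads was 0.331, 0 and 0.234 in females and 0.154, 0.203 and 0.49 in males.

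Across the 6 libraries, log2 CPM of mmu-miR-221-3p and mmu-miR-222-3p gave Pearson's r = 0.869 (exact permutation p = 0.0306, adjusted 0.183 over the 6 pairs of members) and Spearman's rho = 0.829 (exact permutation p = 0.0583, adjusted 0.35). The points share library and depth, and the sexes form separate clusters in both arms, so the pooled correlation cannot be told apart from the sex difference. With the sex means removed r was 0.320, and without female replicates 2 and 3, the farthest from the median, it was 0.671. Each sex has 3 libraries, too few for a correlation of its own.

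Correlations between arms of the same hairpin were lower before the sex means were removed. After adjustment none of the 6 pairs of members, the 3p arms included, passed the test. mmu-miR-221-3p and mmu-miR-221-5p had r = -0.297 (exact permutation p = 0.564, adjusted 0.677) and rho = -0.143 (exact permutation p = 0.803, adjusted 0.919), and r was 0.0831 with the sex means removed. mmu-miR-222-3p and mmu-miR-222-5p had r = 0.549 (exact permutation p = 0.278, adjusted 0.628) and rho = 0.2 (exact permutation p = 0.714, adjusted 0.919). With the sex means removed r was 0.606, above that of the 3p arms, but it rested on the 0 in female replicate 2, without which r was -0.630 and, with the sex means removed, -0.234. Without the 2 libraries farthest from the median r became 0.524 for the arms of miR-221 and -0.371 for those of miR-222, so neither relation held. As a description of the other hairpins, the median r between arms was 0.333 over 254 arm pairs, with quartiles of -0.218 and 0.718. The 3 remaining pairs of members had r between -0.401 and 0.662 and rho between -0.486 and 0.0857, with an adjusted p of at least 0.628 by exact permutation. The highest of these, mmu-miR-221-3p with mmu-miR-222-5p, turned to -0.720 without female replicate 2, and mmu-miR-221-5p with mmu-miR-222-5p went from -0.114 to -0.253.

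The miRNAs with a pattern most like the summed cluster over the 6 libraries were mmu-miR-296-5p (r = 0.993), mmu-miR-431-5p (0.988), mmu-miR-214-3p (0.984), mmu-miR-877-5p (0.984) and mmu-miR-673-5p (0.982), out of 550 compared. A high r was common, since 59 of the 550 reached 0.9 or more. Of these 5, mmu-miR-214-3p had a log2 fold change of 2.38 and an edgeR adjusted p of 1.2e-05, and mmu-miR-673-5p had 1.09 and 0.000687. mmu-miR-296-5p, mmu-miR-431-5p and mmu-miR-877-5p had 0.35, 0.58 and 0.69 and were not called.

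Marker lists of cell types that whole brain tissue could hold were also set beside the cluster. mmu-miR-214-3p, among the 5 miRNAs with the most similar pattern, belongs to the mesenchyme list. The neuron and neural progenitor list was abundant in every library, led by mmu-miR-9-5p. Its summed level of 226135 to 267219 CPM in females was above that of 180342 to 208825 CPM in males, with 2 of 5 members called higher in females. Most of the sum was mmu-miR-9-5p, which was not called (log2 fold change -0.36, edgeR adjusted p 0.555). The lowest female library had 175466 CPM of mmu-miR-9-5p and the highest male library 174797 CPM. mmu-miR-128-3p overlapped between the sexes (-0.09). Lists of tissue outside the brain went the other way. Skeletal muscle, led by mmu-miR-206-3p, summed to 388 to 1180 CPM in females and 5497 to 6139 CPM in males (4 of 4 called higher in males). Epithelium, led by mmu-miR-205-5p, summed to 429 to 1133 and 7990 to 8284 CPM (5 of 6), and mesenchyme, led by mmu-miR-199a-3p, to 4526 to 12680 and 19346 to 23160 CPM (4 of 6). Both arms of miR-199a were among the mesenchyme members called. The arms of miR-140 differed, with a log2 fold change of 0.77 for mmu-miR-140-3p, which was called, and -0.39 for mmu-miR-140-5p, which was not. No sum of these 3 lists overlapped between the sexes. Beside these counts, 8.48% of all 1120 miRNAs tested were called in either direction, and 3.21% were called higher in males. Among the 553 miRNAs averaging 100 reads or more, 17.0% were called. In 25.1% of the 553 all male libraries were above all female libraries.

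The lists closest to known sources of miR-221 and miR-222 were less uniform. The vascular list, led by mmu-miR-126a-3p of endothelial cells, summed to 7776 to 14726 CPM in females and 6080 to 8204 CPM in males, which overlapped. In it 2 of 5 were called higher in females, beside 8.48% of all miRNAs called in either direction. Both were arms of one hairpin, mmu-miR-126a-3p and mmu-miR-126a-5p. Only 1 of the 5, mmu-miR-145a-5p, had a positive log2 fold change (0.49, not called). The red blood cell list, led by mmu-miR-486b-5p, summed to 1284 to 2705 and 3172 to 3927 CPM, with 2 of 5 called higher in males. The 2 called, mmu-miR-486a-5p and mmu-miR-486b-5p, had nearly equal levels in every library (727 and 724 CPM in female replicate 1) and are close to a single measurement. The other members were not called, with log2 fold changes of 0.18 for mmu-miR-451a, its defining member, -0.97 for mmu-miR-144-3p and -0.74 for mmu-miR-144-5p. The leukocyte list, led by mmu-miR-146a-5p, overlapped at 287 to 476 and 396 to 528 CPM, with 0 of 6 called. The hindbrain and spinal cord list, led by mmu-miR-10a-5p, was lower in males, at 8613 to 12290 and 1659 to 2055 CPM, with 2 of 4 called higher in females. The same share of 8.48% stands beside the counts of the red blood cell, leukocyte and hindbrain lists. None of the markers in these lists was at 0 in all 6 libraries. The part of these lists in the male excess of the 3p arms was not tested, and in bulk tissue fewer cells of a type and less RNA per cell cannot be told apart.

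**Figure D4:**
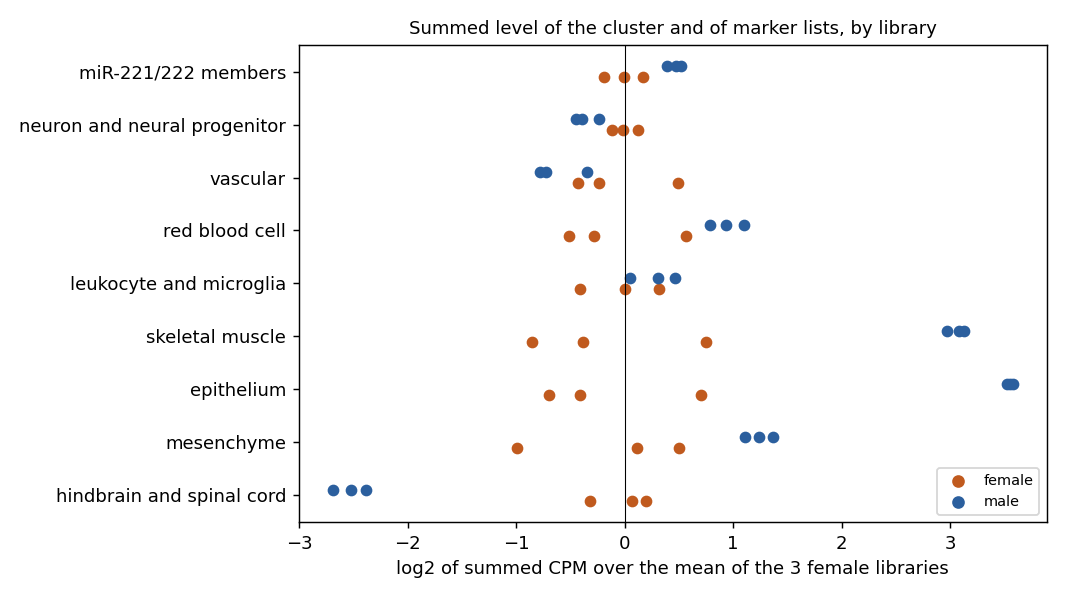
Summed CPM of the 4 cluster members and of 8 marker lists in each library, as log2 of the value over the mean of the 3 female libraries (horizontal axis), with female libraries in orange and male libraries in blue. The cluster is higher in the 3 male libraries, as are muscle, epithelium and mesenchyme lists by larger amounts, while the neuron and hindbrain lists are lower in males. The red blood cell list is also higher in males, but its sum rests mostly on mmu-miR-486a-5p and mmu-miR-486b-5p, and its other members were not called.

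Other miRNAs known to repress Cdkn1b or Kit were taken as a list of 9, of which 8 were tested and 0 were called by edgeR, beside 8.48% of all miRNAs, so a count of 0 among 8 is no result about the list. Their median log2 fold change was -0.24, with 3 of 8 positive, beside a median of -0.02 over all 1120. mmu-miR-181a-5p was the most abundant, with 37273, 33100 and 38409 CPM in females and 57345, 43086 and 39486 CPM in males and a log2 fold change of 0.23. mmu-miR-24-3p, which reached 2861 to 6445 CPM, had a log2 fold change of -0.57, and mmu-miR-148a-3p, at 631 to 1476 CPM, had one of -0.42. mmu-miR-494-3p had 309 to 459 CPM, close to the levels of mmu-miR-221-3p, and a log2 fold change of -0.07. mmu-miR-193b-3p and mmu-miR-34a-5p lay between 11.7 and 41.2 CPM in all libraries and had log2 fold changes of 0.47 and 0.50. mmu-miR-196a-5p and mmu-miR-196b-5p had 0 reads in 4 of 6 libraries, and mmu-miR-193a-3p had 0 reads in all 6.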

How the data were processed

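Small RNA-seq libraries were made with Illumina TruSeq kits from total RNA. The authors trimmed adaptors with cutadapt (1.15), mapped reads with Bowtie (1.2.1) within the miRDeep2 workflow to miRBase precursors and mature miRNAs, naming mm9 as the genome, and deposited raw counts per mature miRNA, which are the values used here. Each miRNA name was listed once per library. CPM is the count divided by the library total, times 1000000, and correlations used log2 CPM with 0.5 reads added.

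miRNAs with at least 10 reads over the 6 libraries were tested with edgeR 4.0.16 (TMM scaling, quasi-likelihood test, sex as the single term), and an adjusted p (Benjamini-Hochberg) under 0.05 was called. Arm ratios, as log2 of (3p reads + 0.5) over (5p reads + 0.5), were tested with limma 3.58.1. Single values and correlations were tested by exact permutation in SciPy 1.17.1. DESeq2 1.42.0, RUVr factors, other scalings and filters, a replicate block and each library left out were alternatives. The RUVr factors were the leading singular vectors of the deviance residuals of a first edgeR fit with upper-quartile scaling. Sequences and chromosome assignments came from RefSeq (GRCm38.p6), coordinates from mm9 and GENCODE vM1. Each many-miRNA test was checked on simulated counts in R 4.3.3.

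The members and lists were chosen with earlier results of these data known. Named beside the members were miRNAs with the same seed, the 5 with the most similar pattern among those with a mean of at least 100 reads, the 3 largest called changes each way on chromosome X, the Cdkn1b and Kit list, and the leading miRNA of each marker list. The other members of the marker lists named were added after their values were seen.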

Additional observations from a re-analysis of the deposited data

How the results depend on the processing

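The direction of the sex difference was the same under all 16 alternatives for mmu-miR-221-3p (log2 fold change 0.35 to 0.57), mmu-miR-221-5p (-0.53 to -0.19) and mmu-miR-222-3p (0.14 to 0.37). For both 3p arms a constant direction was close to fixed in advance, since every male library was above every female library. Under these alternatives the only member called was mmu-miR-221-3p, with DESeq2 and 1 RUVr factor (0.42, adjusted p 0.0339, range over its alternatives 0.0339 to 0.636). For mmu-miR-222-5p, leaving out each library gave -0.47 (without female replicate 2) to 0.61 (without female replicate 3), and -0.20 without male replicate 3, and the highest value of any alternative was 1.55, with DESeq2 and 1 RUVr factor. The miR-222 arm ratio ran from -3.44 without female replicate 3 to 0.78 without female replicate 2, the library with 0 reads of its 5p arm. The number of miRNAs called was 95, and became 147 (edgeR) and 226 (DESeq2) with 1 RUVr factor, and 143 and 170 with 2 factors, an alternative chosen after seeing the data, as were the values of the miR-222 arm ratio spread and of correlations with mmu-miR-222-5p without female replicate 2. Leaving out each library gave 30 (without male replicate 1) to 203 (without female replicate 2), with 60 without female replicate 3. The cause was not tested. The miR-221 arm ratio (0.62 to 1.06), the log2 ratio of mmu-miR-222-3p to mmu-miR-221-3p (-0.28 to -0.07) and the correlation of the 3p arms (0.68 to 0.92) kept their direction. The exact test of the 3p ratio cannot pass the threshold with these libraries, so its p-value says nothing about stability. A minimum of 10 reads in every library left no value for mmu-miR-222-5p, and a mean of 100 reads per arm none for the miR-222 arm ratio.

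Replicate numbers are shared between the sexes, but same-numbered libraries did not deviate together over 553 miRNAs (r = -0.06, 0.07 and 0.14). With the number as a replicate block 92 miRNAs were called, mmu-miR-221-3p had a log2 fold change of 0.41 (adjusted p 0.303), and no other result changed its call. Of the 3 female libraries only 1 correlated best with the male library of its own number.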
